A study of Mus musculus with 2 samples.

Results

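Cytosolic ribosomal protein genes encode the proteins of the small and large subunits of the ribosome that translates messenger RNA in the cytosol. They were chosen here by gene symbol alone: every symbol made of Rpl or Rps and a number, with an optional a, x, y or l suffix, together with Rplp0, Rplp1, Rplp2 and Rpsa. Kinase genes and symbols marked as pseudogenes were left out, as were symbols with fewer than 10 UMIs (unique molecular identifiers, each standing for 1 captured transcript) in both sections together. A total of 83 symbols matched and 82 of them were kept, of 32285 genes in the deposited tables. The member closest to the count minimum was Rpl39l, with 4 and 7 UMIs, and the symbol left out was Rpl10l, with 0 UMIs in both sections. In the sections together the other 81 members had 100 UMIs or more each, and comparisons across members rest on these 81: 32 of the small subunit, 46 of the large subunit and the 3 stalk proteins.

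Visium spatial transcriptomics captures RNA from a tissue section on an array of barcoded spots, each a small region that can hold several cells of different types. The samples were 1 transverse heart section from a PD1 Het mouse and 1 from a PD1 KO mouse. PD1, encoded by Pdcd1, is an inhibitory receptor of lymphocytes, and the PD1 Het mouse, which is heterozygous, is the comparator here; the labels give no other allele. Both were C57BL/6 mice with myocardial infarction at postnatal day 2 by surgical ligation, and both hearts were collected 7 days after surgery. Sections were 10 µm thick, were taken 200 µm below the suture and were permeabilized for 18 minutes.

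Each ribosome holds a single copy of most ribosomal proteins, and their messenger RNAs are among the most abundant of any growing cell. Many of these transcripts begin with a pyrimidine tract at the 5′ end, the TOP motif, through which growth signalling by mTOR controls their translation. In the heart a few members have paralogues with a narrower pattern, of which Rpl3l, restricted to heart and skeletal muscle, is the best known.

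The start of the transcript was examined first, because it is a feature that the choice of members did not use. RefSeq promoter sequences (GRCm38.p6) were found for 62 of the 82 members. A C followed by at least 4 pyrimidines (C or T) on the transcribed strand stood exactly at the annotated start in 13 of them (21.0%), against 800 of 26962 other genes (2.97%). When the tract could begin anywhere within 10 bases of the start, a window chosen after the first search, 38 members (61.3%) and 34.3% of the other genes had one. With at least 6 pyrimidines after the C the shares were 48.4% and 14.1%. A gene with several annotated starts counted if any of them had a tract. Its window was taken at the start with the longest tract, which among those shown concerns Rpl3l (2 starts). The windows below hold 30 bases, 15 on each side of the annotated start, with such a tract in capitals. They are shown for the members with the lowest (Rpl35) and the highest (Rps28) ratio between the sections, the member with the most UMIs (Rpl41), the members with the highest (Rpl10) and lowest (Rpl3l) contrast across the scar, and, as examples of a tract close to the start, Rps6 and Rpl13a.
Rpl35: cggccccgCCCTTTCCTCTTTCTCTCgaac
Rps28: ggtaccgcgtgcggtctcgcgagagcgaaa
Rpl41: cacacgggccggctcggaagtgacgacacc
Rpl10: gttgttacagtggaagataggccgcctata
Rpl3l: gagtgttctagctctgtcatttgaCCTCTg
Rps6: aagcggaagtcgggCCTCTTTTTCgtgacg
Rpl13a: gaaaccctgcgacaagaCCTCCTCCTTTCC
On the plus strand lie the windows of Rpl10 (chrX:74270801-74270830) and Rpl3l (chr17:24727811-24727840). The others are read from the minus strand, at chr2:39005117-39005146 for Rpl35, chr17:33824548-33824577 for Rps28, chr10:128549154-128549183 for Rpl41, chr4:86857353-86857382 for Rps6 and chr7:45128731-45128760 for Rpl13a. A tract is a match of letters near an annotated start and is not a measured start of these transcripts. Rps28, Rpl41 and Rpl10 had no such tract in this window. Members with a tract within 10 bases (37 with at least 100 UMIs) and members without one (24) had similar median ratios between the sections, −0.42 and −0.48 on the log2 scale relative to the median gene, a scale explained with the section comparison.

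The sections differed in depth and in mitochondrial RNA. The PD1 Het section kept 811 spots with 12814494 UMIs and the PD1 KO section 851 spots with 23520499 UMIs, and the median spot held 15475 and 27134 UMIs. A total of 225 barcodes, which stand for positions on the array, occurred in both tables. The mitochondrial share of all UMIs was 25.6% and 15.9%. Xist, which coats the silenced X chromosome of female cells, gave 541 UMIs in PD1 Het tissue and 1 in PD1 KO tissue, so genotype, animal, section depth and the sex that Xist marks cannot be told apart here. Pdcd1 itself had 0 UMIs in both, so it gives no check of the genotypes. The 12 ventricular cardiomyocyte markers, all detected, gave 78811 and 78371 CPM, which fits the labelled tissue. With 1 section in each group there was no replicate error and no test. All intervals are 95% exact intervals that cover counting error only, and no difference between the sections can be called larger than the spread between hearts.

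Ribosomal protein transcripts held a smaller share of the RNA in the PD1 KO section than in the PD1 Het section. The 82 members together gave 795638 UMIs in the PD1 Het section, 6.21% of all UMIs (6.20 to 6.22). In the PD1 KO section they gave 1307060 UMIs, 5.56% (5.55 to 5.57). Between the lower and upper quartile, the spots ran from 5.70% to 6.66% around a median of 6.18% in PD1 Het tissue and from 5.18% to 5.86% around a median of 5.51% in PD1 KO tissue, so the distributions of spots overlapped. Of the UMIs outside the 13 mitochondrial genes, the members held 8.35% and 6.60%, and there the quartile ranges were 7.82% to 8.73% and 6.19% to 6.90% and did not overlap. In spots, fewer cells of a type and less RNA of these genes per cell cannot be told apart.

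The size of that difference depended on the reference. As a log2 ratio of CPM (a gene's UMIs scaled to a section total of 1000000), PD1 KO over PD1 Het, the sum of the members stood at −0.16. The median gene, over the 11455 genes with at least 100 UMIs, stood at 0.33 on the same scale, and the mitochondrial genes had a median of −0.73. Relative to the median gene the sum of the members was therefore −0.49, or 1.41-fold lower in the PD1 KO section, and on a total without mitochondrial genes it was −0.34. The single members had a median of −0.13 by CPM and −0.46 relative to the median gene. By CPM 17 of the 81 members were higher and 64 lower in the PD1 KO section, while all 81 stood below the median gene. As many of the 11455 genes lie above as below the median gene by construction, but 71.0% of the 867 genes with at least 5000 UMIs stood below it.

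Of the 81 members, 17 (21.0%) lay 1.5-fold or more below the median gene and 0 lay that far above it. The same fold below held for 3.30% of all 11455 genes and for 5.77% of the 867 abundant genes, and the fold above for 5.50% of all genes and 13 of the 867. The 788 abundant genes that are no members had a median of −0.14, with 33 of them 1.5-fold below. Small subunit genes (7 of 32 at least 1.5-fold below, median −0.49), large subunit genes (9 of 46, median −0.45) and stalk genes (1 of 3, median −0.54) had like medians.

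Abundance and transcript length moved with the ratio across all genes. Among genes outside the members and the mitochondrial genome, the median relative ratio was 0.07 for genes with 100 to 500 UMIs and −0.22 for the 174 genes with at least 20000 UMIs, the class that also holds 56 members. The members' transcript lengths, each the median over a gene's annotated transcripts, run from 345 to 5130 bases with a median of 772. The 204 other genes with transcripts under 1000 bases and at least 5000 UMIs had a median of −0.22, and 86.3% of them stood below the median gene. The members' median of −0.46 lay further below. The part of abundance, length, depth and mitochondrial share in the result was not tested.

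**Figure D1:**
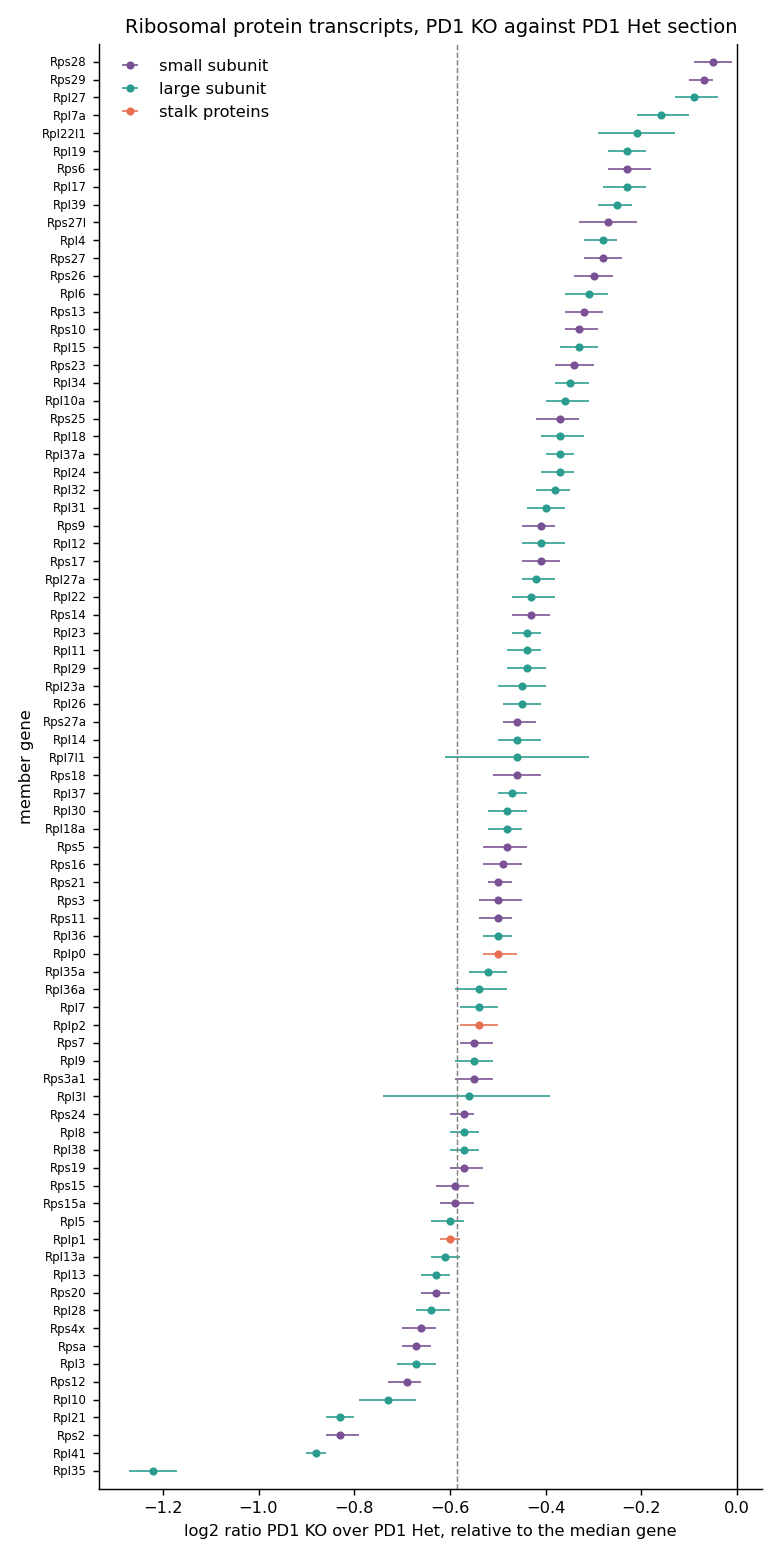
Log2 ratio of 80 of the 81 members, PD1 KO over PD1 Het, relative to the median gene (solid line at 0), with 95% exact counting intervals and colours for small subunit, large subunit and stalk. The dashed line marks 1.5-fold below; all 80 points lie left of 0 and 17 lie beyond the dashed line, with Rpl35 at −1.22 apart from the rest.

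The order of the members by UMIs was nearly the same in both sections. UMIs count captured 3′ ends and were not divided by length, and capture can differ between genes, so levels are given in CPM and compared between sections rather than between genes. The median member had 703 CPM in PD1 Het tissue and 655 CPM in PD1 KO tissue. The range ran from 0.312 to 2570 CPM and from 0.298 to 1761 CPM, with Rpl39l lowest and Rpl41 highest in both. The 5 members with the most UMIs in each section gave 13.9% and 13.1% of all member UMIs, and the first 10 gave 23.6% and 22.5%. Across the 81 members the log2 levels of the sections had Pearson's r 0.980 and Spearman's rho 0.968, a description over genes that share each library.

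Once the shift of the whole pool was taken out, few members moved far. Relative to the sum of the members, the log2 ratios had an SD of 0.18 over members, 73 of the 81 lay within 0.32 of the sum and 80 within 1.5-fold. The 4 members more than 0.32 above the pool were Rps28 (0.44), Rps29 (0.42), Rpl27 (0.41) and Rpl7a (0.33). The 4 below it were Rpl35 (−0.73), Rpl41 (−0.39), Rpl21 (−0.34) and Rps2 (−0.33).

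Among the 5 members with the most UMIs, Rpl41 (ENSMUSG00000093674, chr10:128548114-128549305), which encodes the smallest protein of the large subunit, had 2570 CPM in PD1 Het tissue and 1761 CPM in PD1 KO tissue. Rplp1, a protein of the acidic stalk that recruits translation factors, had 1948 and 1618 CPM. The small subunit gene Rps29 had 1290 and 1544 CPM. Of these 3 only Rps29 was higher in the PD1 KO section by CPM, and relative to the median gene they stood at −0.88, −0.60 and −0.07. Rps24, a small subunit gene mutated in Diamond-Blackfan anaemia, had 1442 and 1221 CPM and stood at −0.57. Rpl13 of the large subunit had 1397 and 1135 CPM and stood at −0.63. Both were lower in the PD1 KO section on both scales.

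Rpl35 had the lowest ratio of all members. It encodes a protein at the exit of the tunnel through which the nascent chain leaves the large subunit (ENSMUSG00000062997, chr2:39001580-39005624 in GRCm38). It had 6938 UMIs or 541 CPM (529 to 554) in PD1 Het tissue and 6890 UMIs or 293 CPM (286 to 300) in PD1 KO tissue. The counts were thus nearly equal although the PD1 KO section held more UMIs in all, and the relative ratio was −1.22 (−1.27 to −1.17), the only one beyond 2-fold. Its start window shows one of the long pyrimidine tracts, while Rpl41, next in order at −0.88 (−0.90 to −0.86), shows none. Rpl21 of the large subunit had 1114 and 788 CPM, and Rps2, near the entry of the messenger RNA channel of the small subunit, 1005 and 713 CPM. Both stood at −0.83. Rpl10, which joins the large subunit late in its maturation in the cytosol, had 281 and 213 CPM and stood at −0.73 (−0.79 to −0.67).

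At the other end of the order were genes with a higher CPM in the PD1 KO section that still did not pass the median gene. Rps28 (ENSMUSG00000067288, chr17:33819027-33824562), a small subunit gene mutated in Diamond-Blackfan anaemia, had 570 CPM (557 to 584) in PD1 Het tissue and 695 CPM (684 to 705) in PD1 KO tissue, and stood at −0.05 (−0.09 to −0.01). Rpl27 had 384 and 455 CPM and stood at −0.09. Rpl7a had 288 and 325 CPM and stood at −0.16. Rpl22l1, the paralogue of Rpl22, had 144 and 157 CPM and stood at −0.21 (−0.29 to −0.13). These large subunit genes, like Rps29, were higher in the PD1 KO section by CPM and lower relative to the median gene. On a total without mitochondrial genes the ratios of Rps28, Rps29 and Rpl27 were 0.11, 0.08 and 0.07. That change of total shifts every gene alike, from −0.16 to −0.34 for the sum of the members. On it Rpl7a (0.17 by CPM) was nearly level, and Rpl22l1 (0.12 by CPM) was lower in the PD1 KO section.

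The stalk proteins Rplp0, Rplp1 and Rplp2 form the arm of the large subunit that binds elongation factors. Rplp0 had 869 and 775 CPM and Rplp2 605 and 525 CPM, and relative to the median gene they stood at −0.50 and −0.54, beside −0.60 for Rplp1. Rpsa, a small subunit protein also known as the laminin receptor, had 1109 and 875 CPM and stood at −0.67. Rps6, whose protein is the classical target of the S6 kinases, had 395 and 426 CPM and stood at −0.23. The stalk and Rpsa were lower in the PD1 KO section on both scales. Rps6 was higher by CPM (0.11) but lower on a total without mitochondrial genes.

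The 4 members on the X chromosome were described apart because of the difference in Xist. Rpl10 (−0.73), Rps4x (−0.66), Rpl36a (−0.54) and Rpl39 (−0.25) had a median relative ratio of −0.60, and 2 of them, Rpl10 and Rps4x, were 1.5-fold below the median gene. Of the 77 autosomal members 15 (19.5%) were that far below, with a median of −0.46. Of the 352 other X-linked genes 8 (2.27%) were, with a median of 0.05. Rpl10 together with its pseudogene copy stood at −0.49 and was no longer 1.5-fold below. By CPM, Rps4x had 1009 in PD1 Het tissue and 802 in PD1 KO tissue, Rpl36a 365 and 317, and Rpl39 838 and 885. Rpl39, which lines the exit tunnel, was thus the single X-linked member that was higher in the PD1 KO section by CPM (0.08). On a total without mitochondrial genes Rpl39 was lower there too.

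For 7 members at least 50% of the 31-base words in the last 400 bases of the transcripts also occurred in another gene of the feature table, where the counting can split reads. For Rpl10 all of these words occur in other genes of the feature table, of which the pseudogene Rpl10-ps3 shares the most. Rpl10-ps3 had 212 UMIs in PD1 Het tissue and 1281 in PD1 KO tissue, 5.56% and 20.4% of the UMIs of the pair. Its own relative ratio was 1.39 (1.18 to 1.60), opposite to that of Rpl10, and Rpl10 with its copy stood at −0.49 in place of −0.73. Copies also had relative ratios of 1.38 for Rps27rt beside Rps27 and 1.34 for Rpl9-ps6 beside Rpl9. Other copies stood below the median gene like their members: Gm2000 (−0.66) beside Rpl35, Gm10076 (−0.48) beside Rpl41 and Gm11361 (−0.35, −1.16 to 0.49) beside Rps18. Rpl36a-ps1 stood at 0.31 (−0.04 to 0.67) beside Rpl36a. Other genes of the feature table share 48.8% of the end of Rplp2, and Wdr89, which shares the most, had 189 and 1236 UMIs.

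Other genes of the feature table share 91.4% of the end of Rpl35. Gm2000, which shares the most, had 482 and 706 UMIs, and the pair stood at −1.17. Rpl41 with its copy Gm10076 stood at −0.87. Rps27 with Rps27rt stood at −0.14 in place of −0.28, Rpl9 with Rpl9-ps6 at −0.39 in place of −0.55, and Rplp2 with Wdr89 at −0.43 in place of −0.54. Rpl36a with Rpl36a-ps1 stood at −0.51, and Rps18 with Gm11361 at −0.46. All of these sums stayed below the median gene. The levels of members with such copies are uncertain, because reads moved between the genes or left out as ambiguous by the counting were not tested.

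The lower level in the PD1 KO section was present at every level of scar matrix. Within a section, spots were put in order of the UMI share (outside mitochondrial genes and members) that came from 18 scar matrix and activated fibroblast genes such as Col1a1, Postn and Tnc, and divided into 5 bins of 162 or 163 spots in PD1 Het tissue and 170 or 171 in PD1 KO tissue. From the lowest to the highest bin the relative ratio of the sum of the members, PD1 KO over PD1 Het, was −0.47, −0.43, −0.45, −0.47 and −0.47. By CPM it was −0.16, −0.14, −0.14, −0.12 and −0.22. Between 78 and 81 of the 81 members stood below the median gene in each bin. The bins match ranks within a section and not matrix levels, since the matrix genes held 0.290% of UMIs in the lowest and 1.40% in the highest bin of the PD1 Het section and 0.405% and 2.28% in the PD1 KO section.

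Within each section the members held the largest share in the spots richest in scar matrix. In the PD1 Het section the share of all UMIs was 5.93%, 5.91%, 5.94%, 6.11% and 7.29% from the lowest to the highest matrix bin. In the PD1 KO section it was 5.30%, 5.36%, 5.40%, 5.62% and 6.28%. Most of the difference lay between the last bin and the others in both sections. Highest over lowest bin, the sum of the members stood at 0.30 in log2 CPM (1.23-fold) in PD1 Het tissue and at 0.25 (1.19-fold) in PD1 KO tissue, with 79 and 78 of the 81 members above 0.

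Most of that contrast was shared by genes in general. The median gene stood at 0.21 and 0.20 in the same contrasts, so that relative to it the sum of the members was only 0.09 and 0.04 higher, with 67 and 51 of the 81 members above it. In each section 0 of the 81 members lay 1.5-fold or more above the median gene and 1, Rpl3l, lay that far below it. Over all genes with at least 100 UMIs the shares above were 11.1% and 11.3%, and the shares below 4.68% and 7.59%. Mitochondrial genes ran the other way: their share was 27.2% in the lowest and 20.4% in the highest bin of the PD1 Het section, and 16.7% and 12.3% in the PD1 KO section. On a total without them the members had 8.15% and 9.16% in PD1 Het tissue and 6.36% and 7.16% in PD1 KO tissue, a log2 ratio of 0.17 in both.

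**Figure D2:**
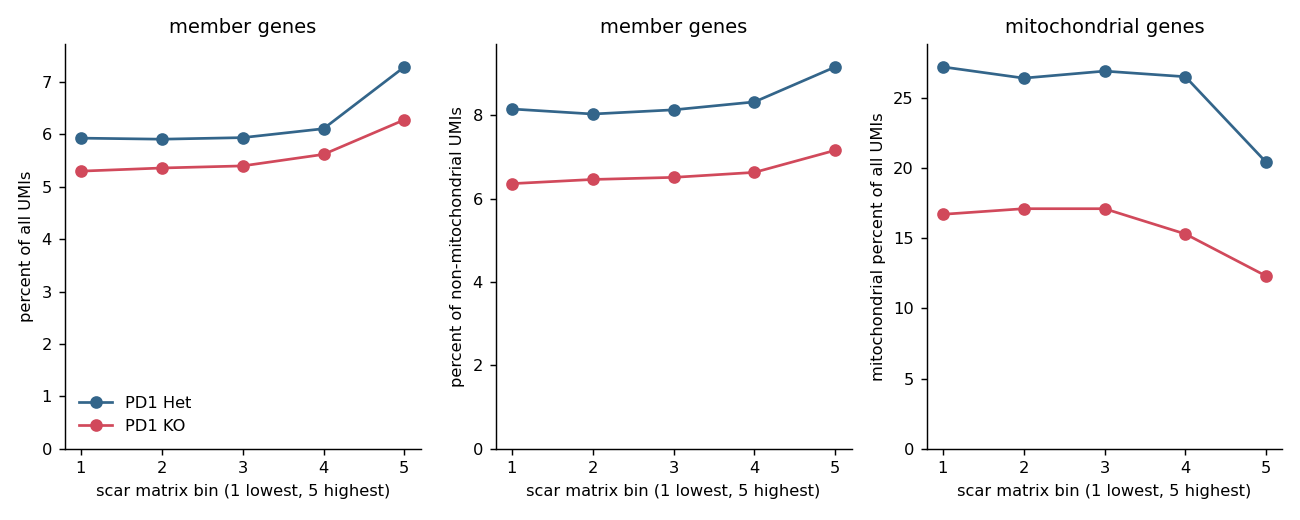
Member share of all UMIs (left), member share of non-mitochondrial UMIs (middle) and mitochondrial share (right), in percent, in the 5 scar matrix bins of the PD1 Het (blue) and PD1 KO (red) sections; each point is the sum over the spots of a bin. The member share is highest in bin 5 of both sections (7.29% and 6.28%), where the mitochondrial share is lowest (20.4% and 12.3%).

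Depth moved with the bins as well. The median spot of the highest bin held 14350 UMIs in PD1 Het tissue and 22998 in PD1 KO tissue, against 15528 and 30135 in the lowest. When spots were split into 3 depth classes and 3 matrix bins were made within each, an alternative added after the data were seen, the log2 CPM ratio of highest over lowest was 0.27, 0.19 and 0.16 from the shallowest to the deepest class of the PD1 Het section. In the PD1 KO section it was 0.32, 0.15 and 0.05. The direction was the same in all of these classes and the ratio was smallest in the deepest spots, where relative to the median gene it was 0.06 and 0.01.

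Members differed little in how they followed the scar. Relative to the sum of the members, the matrix contrasts had an SD over members of 0.20 in PD1 Het tissue and 0.15 in PD1 KO tissue, and 79 of the 81 lay within 0.32 in each. Rpl3l at the low end and Rpl10 at the high end lay outside in both. The contrast had the same sign in both sections for 58 members, and across members the sections had Pearson's r 0.83 and Spearman's rho 0.62, or 0.70 and 0.61 over the 80 members without Rpl3l.

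Among the members that leaned most to the matrix-rich spots were Rpl10, Rpl12, Rps12 and Rpl13a. Rpl10 had 244 CPM in the lowest and 381 CPM in the highest matrix bin of the PD1 Het section, and 187 and 283 CPM in the PD1 KO section. It stood at 0.34 (0.19 to 0.49) and 0.35 (0.22 to 0.48) relative to the pool. Rpl12, a protein at the base of the stalk, stood at 0.14 and 0.25, and Rps12 at 0.21 and 0.17. Rpl13a stood at 0.04 (−0.03 to 0.11) and 0.25 (0.19 to 0.31), so its interval included 0 in the PD1 Het section. The intervals of 6 members lay above the pool in both sections, among them Rpl10, Rpl12, Rps12 and, named after their values were seen, Rps19 and Rps20.

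At the other end, Rps27l, Rpl36, Rpl7l1 and Rpl27 had nearly level CPM while the pool was higher in the matrix-rich spots. Rps27l, a paralogue of Rps27 known as a p53 target, had 263 CPM in both the lowest and the highest bin of the PD1 Het section, and 271 and 258 CPM in the PD1 KO section. It stood at −0.30 and −0.31 relative to the pool. Rpl36 stood at −0.25 in both sections and Rpl27 at −0.21 and −0.20. Rpl7l1 stood at −0.23 (−0.61 to 0.15) and −0.24 (−0.53 to 0.05), intervals that include 0. The intervals of 10 members lay below the pool in both sections. They were Rpl3l, Rps27l, Rpl36, Rpl27, Rps2, Rps29 and Rpl41 and, named after their values were seen, Rpl30, Rpl37 and Rps25.

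**Figure D3:**
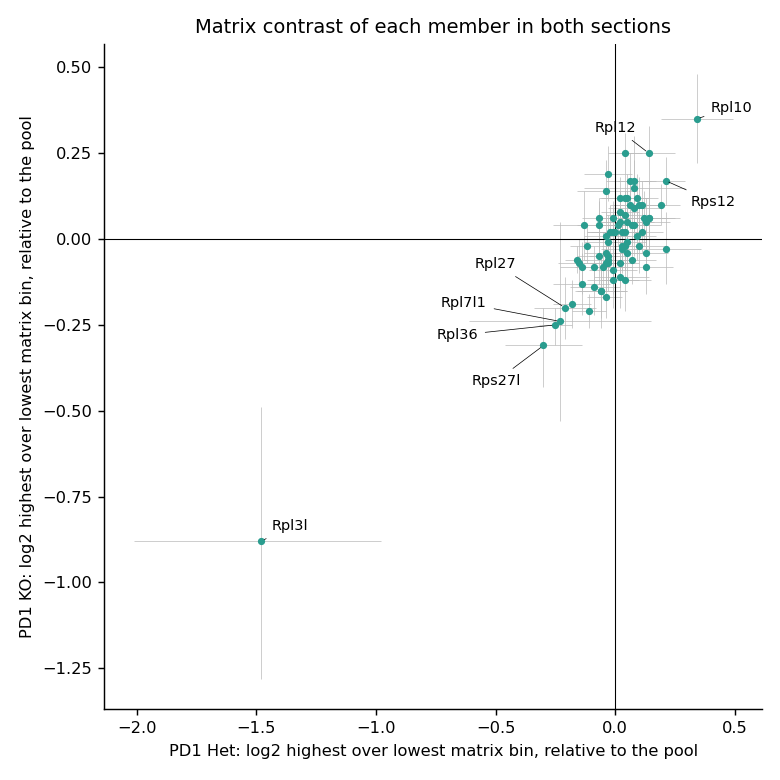
Log2 ratio of the highest over the lowest scar matrix bin for each of the 81 members, relative to the sum of the members, in the PD1 Het (x axis) and PD1 KO (y axis) sections, with 95% exact counting intervals. Most points lie near 0 on both axes, Rpl10 is highest on both (0.34 and 0.35) and Rpl3l lies apart at −1.48 and −0.88.

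Rpl3l was the member with the strongest pattern across spots. It encodes the striated muscle form of the large subunit protein next to the peptidyl transferase centre, and it takes the place of Rpl3 in part of the ribosomes of adult muscle (ENSMUSG00000002500, chr17:24727820-24736143). It was a minor transcript at this age, with 34.2 CPM (31.1 to 37.5) in PD1 Het tissue and 29.1 CPM (26.9 to 31.3) in PD1 KO tissue, against 652 and 516 CPM of Rpl3. Rpl3l gave 4.98% (4.54 to 5.46) and 5.33% (4.95 to 5.74) of the UMIs of the pair, intervals that overlap. Relative to the median gene both were lower in the PD1 KO section, Rpl3l at −0.56 (−0.74 to −0.39) and Rpl3 at −0.67.

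From the lowest to the highest matrix bin the Rpl3l share of the pair was 6.71%, 5.61%, 4.99%, 5.09% and 2.57% (1.89 to 3.41) in the PD1 Het section. In the PD1 KO section it was 6.75%, 6.60%, 5.22%, 4.71% and 3.33% (2.65 to 4.11). The intervals of the lowest and highest bins did not overlap in either section. The counts behind them were 118 and 46 UMIs of Rpl3l in PD1 Het tissue and 169 and 82 in PD1 KO tissue, so the values are coarse. By CPM Rpl3l was 45.6 and 20.1 in PD1 Het tissue and 33.2 and 21.4 in PD1 KO tissue, log2 ratios of −1.18 (−1.71 to −0.68) and −0.64 (−1.04 to −0.25). Rpl3 ran the other way, at 0.27 and 0.44.

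Cardiomyocyte transcripts were also lower in the matrix-rich spots, and Rpl3l was set against them. The summed ventricular cardiomyocyte markers stood at −0.34 and −0.46 in log2 CPM, highest over lowest bin. Per cardiomyocyte marker UMI, Rpl3l was −0.85 (−1.37 to −0.34) in PD1 Het tissue and −0.18 (−0.57 to 0.21) in PD1 KO tissue, so its interval stayed below 0 in the PD1 Het section and included 0 in the PD1 KO section. The intervals of the sections overlap, and the difference between them was not tested. The muscle form of an elongation factor, Eef1a2, stood at −0.30 and −0.22 in log2 CPM and its general form, Eef1a1, at 0.42 and 0.56. Per cardiomyocyte marker UMI, Eef1a2 was 0.04 (−0.08 to 0.15) in PD1 Het tissue and 0.24 (0.15 to 0.33) in PD1 KO tissue. On that measure Eef1a2 was thus not lower in the matrix-rich spots of either section, unlike Rpl3l in the PD1 Het section.

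Of 11 spot sets chosen by cell type markers, the Rpl3l share was highest in cardiomyocyte-rich and lowest in matrix-rich spots of both sections. In the 10% of spots richest in ventricular cardiomyocyte markers Rpl3l gave 6.73% and 7.87% of the pair, and in the 10% richest in scar matrix genes 2.12% in both sections. The share was 3.60% and 3.63% in macrophage-rich spots and 3.54% and 2.57% in endocardial-rich spots. By CPM Rpl3l was 0.43 (0.02 to 0.81) and 0.41 (0.09 to 0.73) higher on the log2 scale in the cardiomyocyte-rich spots than in the other spots.

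Rps27l gave 30.6% and 30.8% of the UMIs of Rps27l and Rps27, and from the lowest to the highest matrix bin 33.4% and 27.8% in PD1 Het tissue and 32.6% and 26.8% in PD1 KO tissue. Rps27rt, the copy of Rps27 with 374 and 2243 UMIs, was not counted in this pair, so the section shares depend on leaving it out. Rpl22l1 gave 22.4% (21.5 to 23.3) of the UMIs of its pair in PD1 Het tissue and 25.1% (24.4 to 25.8) in PD1 KO tissue, where the intervals do not overlap. Its share was 22.2% and 22.9% in the lowest and highest matrix bins of the PD1 Het section and 23.7% and 27.2% in the PD1 KO section. The share of Rps27l in its pair was thus lower in the matrix-rich spots of both sections, while its own CPM was nearly level. The share of Rpl22l1 was higher there in the PD1 KO section, with intervals that do not overlap (22.2 to 25.3 and 25.5 to 28.9), and nearly level in the PD1 Het section.

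Rpl7l1, related to a factor of ribosome assembly, gave 8.16% and 8.59% of the UMIs of Rpl7l1 and Rpl7, with 47.9 and 43.8 CPM beside 539 and 466 CPM of Rpl7. In the lowest and highest matrix bins its share was 9.20% (7.72 to 10.9) and 7.25% (6.04 to 8.63) in PD1 Het tissue. In PD1 KO tissue it was 9.39% (8.27 to 10.6) and 7.79% (6.72 to 8.97), and the intervals overlap in both sections. Rpl39l and Rpl10l are paralogues known from the testis. Rpl39l gave 0.0372% and 0.0336% of the UMIs of its pair with Rpl39, and the 0 counts of Rpl10l allow up to 0.234 and 0.128 CPM.

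**Figure D4:**
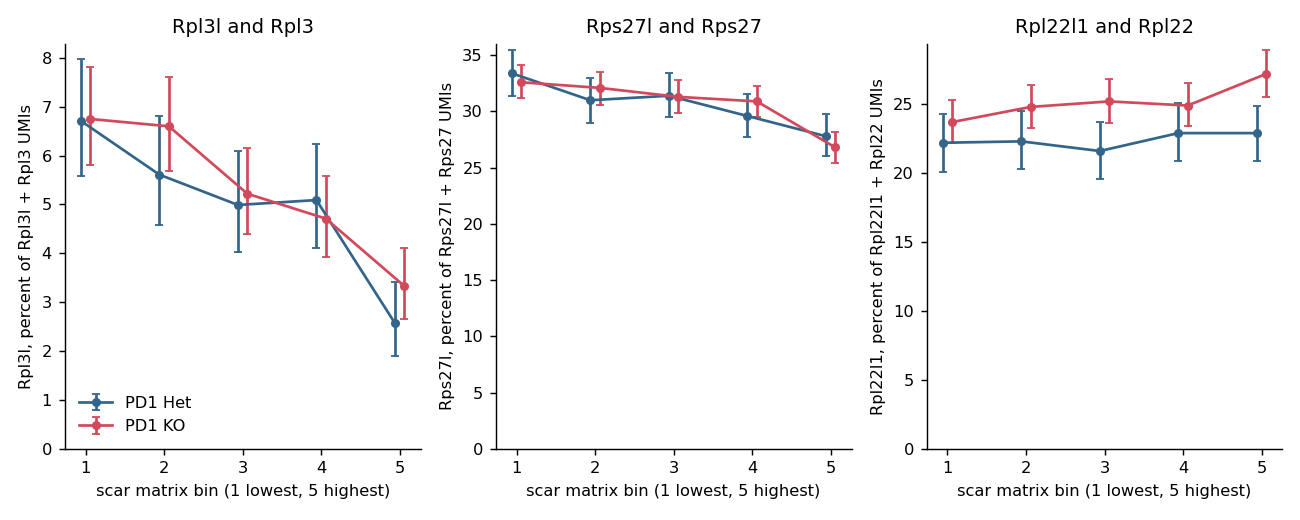
Paralogue UMIs as percent of paralogue and parent UMIs in the 5 scar matrix bins of the PD1 Het (blue) and PD1 KO (red) sections, for Rpl3l, Rps27l and Rpl22l1; bars are 95% exact binomial intervals. Rpl3l drops from 6.71% and 6.75% in bin 1 to 2.57% and 3.33% in bin 5, and Rps27l from 33.4% and 32.6% to 27.8% and 26.8%, while Rpl22l1 goes from 22.2% to 22.9% in the PD1 Het section and from 23.7% to 27.2% in the PD1 KO section.

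Marker-rich spots were then compared with the other spots of the same section, in sets of 81 and 85 spots for each of 11 cell type lists. These sets hold mixed tissue and are not cell types. In cardiomyocyte-rich spots the members held 5.60% of UMIs against 6.29% in the other spots of the PD1 Het section, and 5.0% against 5.63% in the PD1 KO section. Matrix-rich spots had 8.10% against 6.05% and 6.60% against 5.47%. Macrophage-rich spots had 7.25% against 6.11% and 6.66% against 5.47%. Endocardial-rich spots had 7.16% against 6.11% and 6.31% against 5.49%. By share of all UMIs, the members were lower in both sections where cardiomyocyte markers were high. Their share was higher where matrix, macrophage or endocardial markers were high. These sets are not separate: scar matrix genes held 1.20% and 2.28% of UMIs in macrophage-rich spots and 1.17% and 1.95% in endocardial-rich spots. Outside the matrix-rich spots the matrix genes held 0.506% and 0.695%.

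The other sets differed less. Smooth muscle-rich spots had 6.42% against 6.19% and 5.94% against 5.52%, cell cycle-rich spots 6.34% against 6.19% and 5.69% against 5.54%, and spots with the most T cell marker UMIs 6.27% against 6.20% and 5.84% against 5.53%. Endothelial-rich spots had 6.04% against 6.23% in PD1 Het tissue and 5.59% against 5.55% in PD1 KO tissue, epicardial-rich spots 6.14% against 6.22% and 6.00% against 5.51%, and spots with the most B cell marker UMIs 6.15% against 6.22% and 5.66% against 5.55%. These 3 sets went in opposite directions in the sections. Red blood cell-rich spots had 6.20% against 6.21% and 5.39% against 5.58%. The T cell and B cell lists held at most 0.0159% of the UMIs of their sets, a few UMIs per spot. Counts were also low for the endocardial list (0.0399% and 0.0376%) and the epicardial list (0.0265% and 0.0385%).

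In all 22 comparisons the sum of the members stayed between −0.01 and 0.14 on the log2 scale relative to the median gene of the contrast. In the cardiomyocyte-rich spots it stood at 0.02 and 0.04, with 50 and 62 of the 81 members above the median gene. The median gene itself stood at −0.19 and −0.21 there, so the lower share in these spots was not particular to the members. Mitochondrial shares moved with the sets. They were 29.6% and 21.1% in the cardiomyocyte-rich spots and 16.4% and 10.3% in the matrix-rich spots. Without mitochondrial genes in the total, the cardiomyocyte-rich spots had 7.95% against 8.40% and 6.33% against 6.64%, and the matrix-rich spots 9.70% against 8.22% and 7.36% against 6.54%. On that total the red blood cell-rich spots turned to a higher share, 8.48% against 8.33% and 6.64% against 6.60%, as did the endothelial-rich (8.53% against 8.33%) and epicardial-rich spots (8.58% against 8.33%) of the PD1 Het section, while its T cell set turned lower (8.33% against 8.35%). The directions of the shares in the cardiomyocyte-rich and matrix-rich spots were the same with and without mitochondrial genes, and the differences were smaller without them. The part of mitochondrial share and depth in them was not tested further.

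**Figure D5:**
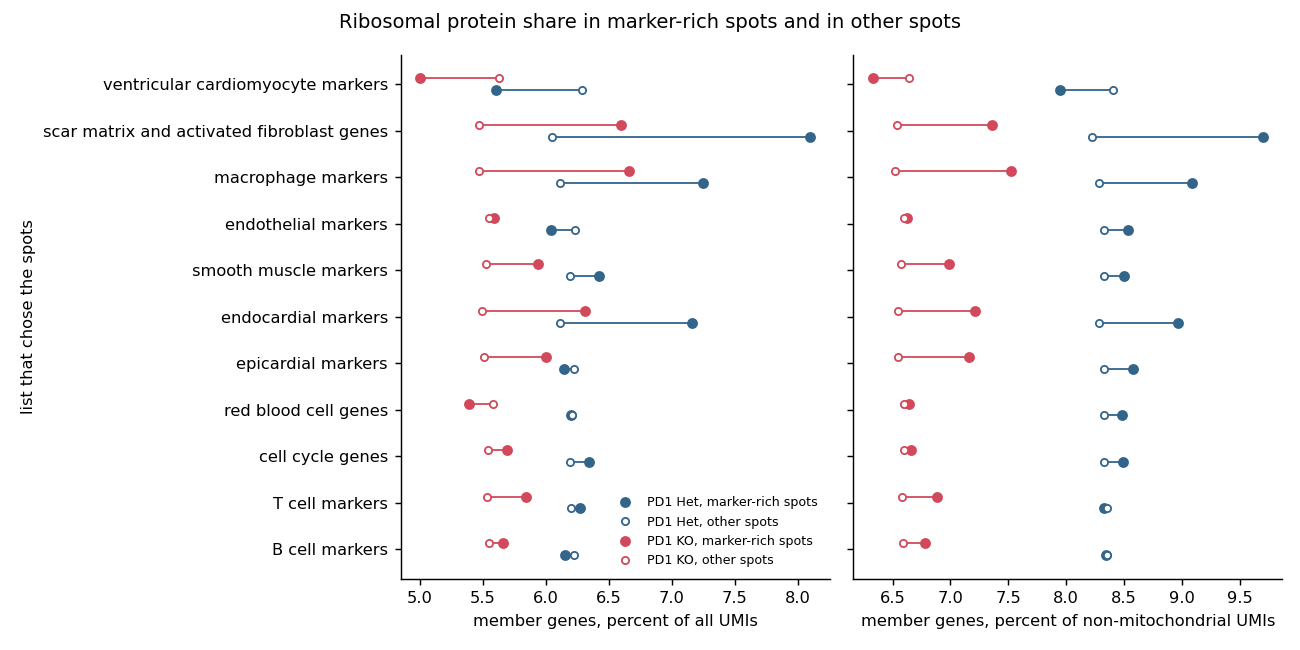
Member share, in percent of all UMIs (left) and of non-mitochondrial UMIs (right), in the 10% of spots richest in each marker list (filled) and in the other spots of the section (open), PD1 Het in blue and PD1 KO in red; the x axes do not start at 0. Filled points lie left of open ones for cardiomyocyte markers and right of them for matrix, macrophage and endocardial markers in both sections and on both totals.

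Spot by spot the members varied together to a modest degree. After each spot was thinned to 10000 UMIs, which left 759 and 839 spots and left out 52 and 12, the members' share ran from 5.08% to 7.74% (5th to 95th percentile) in PD1 Het tissue and from 4.70% to 6.81% in PD1 KO tissue. Over spots, 78 members with at least 2 UMIs per thinned spot had a Spearman's rho with the sum of the others of 0.06 to 0.53 (median 0.27) and of 0.08 to 0.35 (median 0.21). The 453 other genes at that level had medians of 0.07 and −0.03. Spots share library and tissue composition, and most single counts are low, so these are descriptions.

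The genes outside the family that followed the sum most closely were Tmsb4x (0.53 and 0.41), Col3a1 (0.38 and 0.47), Tmsb10 (0.52 and 0.35), Eef1a1 (0.43 and 0.42), Sparc (0.42 and 0.41), Fn1 (0.42 and 0.41), Vim (0.41 and 0.42), Ftl1 (0.41 and 0.40), Gsn (0.48 and 0.33) and Dcn (0.42 and 0.39). Col3a1, Sparc, Fn1 and Dcn encode extracellular matrix proteins, Tmsb4x and Tmsb10 thymosins that bind actin, Vim an intermediate filament and Ftl1 a ferritin subunit. The lowest was the mitochondrial gene mt-Co1, at −0.76 and −0.53. It alone held 712 and 394 UMIs per thinned spot. Every thinned spot has the same total, so more mitochondrial UMIs in a spot leave fewer for all other genes. The part of this fixed total in the correlations was not tested.

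Other genes of translation were set beside the members. The ribosomal proteins named otherwise and ribosome-bound partners (7 genes) had a median section ratio of −0.30 against the median gene and of 0.03 by CPM. Fau, which encodes the small subunit protein eS30 fused to a ubiquitin-like protein, had 949 and 824 CPM and stood at −0.54, and Rack1, a scaffold on the small subunit, had 529 and 579 CPM and stood at −0.20. In this list 1 gene was 1.5-fold above the median gene and 0 were that far below.

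The 11 translation elongation factors and partners had a median of −0.36 and of −0.03 by CPM, with 0 genes 1.5-fold above and 2 below the median gene, Tpt1 (−0.60) and Eef1g (−0.62). Eef1a1, which brings aminoacyl-tRNA to the ribosome, had 2403 and 2357 CPM and stood at −0.36. The 34 translation initiation factors had a median of −0.21 (0.12 by CPM), with 0 above and 3 below: Eif2s3x (−0.79), Eif4a1 (−0.62) and Eif3j1 (−0.59), the last named after its value was seen. Eif1 stood at −0.49 and Eif4g2 at −0.04. The medians of elongation and initiation factors lay below the median gene but nearer to it than the members' −0.46.

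The 30 ribosome biogenesis genes had a median of −0.24 (0.10 by CPM), with 0 above and 3 below: Polr1b (−1.0), a subunit of RNA polymerase I, Mrto4 (−0.61) and, named after its value was seen, Nhp2 (−0.60). Ncl, the nucleolar protein nucleolin, stood at −0.24 and Nop10 at −0.11. The 16 growth signalling genes had a median of 0.05 (0.38 by CPM), with 2 above and 0 below. These were Myc (0.99), with 26 and 119 UMIs, and Rictor (0.92), with 78 and 341 UMIs, both at low counts. Akt1 stood at 0.09 and Akt2 at −0.48.

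Mitochondrial ribosomal proteins, which belong to the separate ribosome of the mitochondrion, served as a second family of ribosomal genes. The 78 genes had a median of −0.19 (0.14 by CPM), with Mrpl1 (0.69) above and Mrpl12 (−0.63) and Mrpl37 (−0.60) below, the last named after its value was seen. Mrpl42 had 313 and 314 CPM and stood at −0.33. Highest over lowest matrix bin, their medians relative to the median gene were −0.28 and −0.41, against 0.11 and 0.05 for the cytosolic members. The mitochondrial family thus lay below the median gene across the scar in both sections, while the cytosolic members lay little above it. In the PD1 KO section 51 of the 81 cytosolic members stood above the median gene and 30 below.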

How the data were processed

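Deposited values are raw UMI counts for every gene in every spot. Per the file headers, they were written by Space Ranger 1.1.0. The builds mm10 and GRCm38 are named in the submitters' processing notes, and the annotation release is not given in the sources used here. Spots with at least 500 UMIs were summed per section, bin or set and scaled to CPM. Ratios carry 95% exact conditional intervals, shares exact binomial intervals, and a count of 0 allows 3 counts. No test was possible with 1 section per group. Positions come from GENCODE vM21 (GRCm38) and start windows from the RefSeq promoter table. Protein sequences were not used here. Tools were Python 3.11.15, numpy 2.4.6, scipy 1.17.1, pandas 2.3.3 and, for alternative scaling, edgeR 4.0.16 in R 4.3.3. Scripts were tested on simulated data.

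The members and all lists were chosen with earlier results of these data known. The 11 cell type lists were ventricular cardiomyocyte, scar matrix, macrophage, endothelial, smooth muscle, endocardial, epicardial, red blood cell, cell cycle, T cell and B cell genes. The 6 companion lists were elongation factors, initiation factors, ribosome biogenesis, growth signalling, partners and mitochondrial ribosomal proteins. Named members (33) were the 5 with the most UMIs, the 5 highest and 5 lowest by section ratio and by matrix contrast, all paralogues and parents, the stalk proteins, Rpsa, Rps6 and the X-linked members. In each companion list the 2 most abundant genes and the 2 of largest absolute ratio were named, and of genes that follow the members across spots the first 10; other names are marked. Alternatives were scaling, spot and gene filters, thinning, fold, bin number, ranking list, set size and totals. A member and a partner gene are not reported here by name.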

Additional observations from a re-analysis of the deposited data

How the results depend on the processing

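No paired analysis was possible because each group has 1 section and no test was run. Of the values that answer a comparison 36 stayed within their counting interval (counts within 1.5 times), 24 moved and 0 changed sign; of the named members' section ratios 186 stayed, 38 moved and 3 changed sign, and of the spot-set ratios 14, 52 and 7. On the total without mitochondrial genes the section ratios of Rps28, Rps29 and Rpl27 were 0.11, 0.08 and 0.07. Relative to the median gene they were −0.05, −0.07 and −0.09, and by CPM 0.28, 0.26 and 0.25. The median gene stood at 0.15 on the total without mitochondrial genes, above all of them, so their sign depends on the reference. On that total the ratios of endothelial-rich spots of PD1 Het were 0.03 (from −0.05), epicardial-rich spots of PD1 Het 0.04 (from −0.02) and red blood cell-rich spots of PD1 KO 0.01 (from −0.05). With the top 5% of spots the epicardial set of PD1 Het was 0.04 and the red blood cell set of PD1 KO 0.01, and with the top 20% the epicardial set of PD1 Het was 0.01 and the endothelial set of PD1 KO −0.01 (from 0.01). The cause of these moves was not tested. The section ratio of the sum (−0.16 in log2 CPM) was −0.16 after thinning to 10000 UMIs, −0.47 with TMM factors, −0.47 with median-of-ratios factors and −0.34 without mitochondrial genes in the total; relative to the median gene (−0.49) it was −0.48 after thinning. The 17 members at least 1.5-fold lower became 4 when ratios were taken on the total without mitochondrial genes (1.36% of all genes), 12 with TMM factors (2.78%) and 13 with median-of-ratios factors (2.85%). Relative to the median gene they became 66 at the smaller fold, 0.32 on the log2 scale (15.4%), and 1 at 2-fold (0.533%). The matrix contrast in log2 CPM (0.30 in PD1 Het, 0.25 in PD1 KO) was 0.20 and 0.18 with 3 bins, 0.46 and 0.32 with 10 bins, 0.17 and 0.17 without mitochondrial genes, 0.25 and 0.25 after thinning, and 0.35 and 0.33 with spots ranked by cardiomyocyte markers. Under alternatives added after the data were seen it was 0.09 and 0.04 relative to the median gene, and 0.12 and 0.12 without mitochondrial genes and cardiomyocyte markers. Marker-rich sets with a lower member share in both sections (2) were 1 without mitochondrial genes. The Rpl3l share of its pair in the highest matrix bin of PD1 Het (2.57%) was 3.51% with 3 bins. Counts were lowest for Rpl39l, Rpl3l and Rpl7l1, and 1 section per group limits every comparison of the sections.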

Other observations

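The 10 spots with the highest member share had a median depth below that of the median spot of their section, which held 15475 UMIs (PD1 Het) and 27134 UMIs (PD1 KO). In the PD1 Het section the 10 spots with the highest share, all at or above 10.3%, held 3782 to 23343 UMIs (median 13030), with a median scar matrix share of 2.84% and a median mitochondrial share of 10.0%. In the PD1 KO section the 10 spots, at or above 8.59%, held 7254 to 22370 UMIs (median 16029), all below the section median, with medians of 6.08% and 4.92%. Matrix shares were above, and mitochondrial shares below, those of the section in both.

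When spots were divided into 5 bins by depth, the member share of all UMIs was 6.77% in the shallowest and 5.81% in the deepest bin of the PD1 Het section and 5.97% and 5.39% in the PD1 KO section. On the total without mitochondrial genes it was 8.32% and 8.37%, and 6.72% and 6.65%. The mitochondrial share was 18.6% and 30.6%, and 11.1% and 18.9%. The difference between shallow and deep spots was thus nearly gone once mitochondrial UMIs were left out of the total.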
